A study of Mus musculus with 2 samples.

Results

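Non-classical, or patrolling, monocytes of neonatal mouse skin were chosen by their measured transcripts. A barcode was counted as one when at least 2 of the 4 markers Ace, Treml4, Cd300e and Spn had a unique molecular identifier (UMI, 1 captured transcript), with no Cd3d, Cd3e, Cd3g or Cd79a, fewer than 10 S100a8 and S100a9 UMIs, C1qa, C1qb and C1qc together under 0.3% of UMIs, and at least 1 UMI of Lyz2 or Cx3cr1. The rule found 158 such cells among 27589 barcodes with at least 200 genes and under 10% mitochondrial UMIs: 30 of 8047 in the anti-Gr-1 library and 128 of 19542 in the isotype control library. Because the rule reads these transcripts, the levels of its genes are given as a description.

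The anti-Gr-1 group was wild-type C57BL/6 mice given the anti-Gr-1 antibody every other day from postnatal day 4 to day 14. The control group was wild-type C57BL/6 mice given an isotype control antibody on the same days. Skin was taken at day 15 and digested with collagenase, live CD45+ cells were sorted, and 4 to 7 mice were pooled per condition into 1 droplet-based 3′ library each. With 1 pooled library per group there is no replicate spread: no difference below has a test, intervals are 95% exact intervals for counting error only, and sex, litter or handling cannot be told apart from treatment.

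Non-classical monocytes derive largely from classical Ly6C-high monocytes, lose Ly6C as they mature, and crawl along the endothelium of small vessels. The nuclear receptor Nr4a1 and the chemokine receptor Cx3cr1 are needed for their formation or survival. Anti-Gr-1 antibody binds Ly6G, carried by neutrophils, and Ly6C, which is high on classical and low on non-classical monocytes.

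The anti-Gr-1 library was the more deeply sequenced, with a median of 8139 UMIs per kept barcode, against 4884 in the isotype control library. The kept barcodes summed to 83305329 UMIs in the anti-Gr-1 library and 122794488 in the isotype control library. Of kept barcodes, 1509 held Xist without Y-linked UMIs and 4596 the reverse in the anti-Gr-1 library, against 6626 and 5922 in the isotype control library. The libraries shared 61 barcode sequences, which were carried by 0 anti-Gr-1 and 1 isotype control non-classical monocyte.

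The markers set apart a core and a fringe. Of 30 anti-Gr-1 members, 17 (56.7%) had 3 or 4 markers, against 57 of 128 (44.5%) in the isotype control library. Their median depth was 6361 UMIs for anti-Gr-1, against 5318 UMIs for isotype control. The cells with exactly 2 markers, just inside the rule, numbered 13 in the anti-Gr-1 library, with a median of 18920 UMIs, and 71 in the isotype control library, with a median of 6447. Just outside it, with 1 marker and all else met, lay 435 anti-Gr-1 and 762 isotype control barcodes.

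Genes outside the rule checked the label. Levels are a gene's UMIs per 1000000 UMIs summed over the cells of a group (CPM), compared as log2 ratios with 10 CPM added to each level, for genes with at least 50 UMIs over both groups. Beside all other kept barcodes, 5.47% of 3824 genes were past 2-fold higher and 2.93% lower in the anti-Gr-1 members, against 7.09% higher and 1.99% lower in the isotype control members. In both libraries at once, 3.71% were higher and 1.2% lower. Ranked by the smaller of its ratios in the libraries, the leading gene was Pou2f2, a transcription factor of B cells and monocytes, with log2 ratios of 4.10 for anti-Gr-1 and 3.86 for isotype control. Of 25 identity genes of non-classical monocytes outside the rule, 18 were past 2-fold higher in the anti-Gr-1 members and 20 in the isotype control members, and 0 lower. These genes travel with the markers that chose the cells, so their levels are a description.

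The identity genes were stronger in the cells with 3 or 4 markers than in the fringe. Setting 3 or 4 markers over 2, 24 of the 25 were past 2-fold higher in the anti-Gr-1 library, where 17% of 3824 genes were higher and 13.9% lower, and 15 of 25 in the isotype control library, where 2.93% were higher and 4.16% lower. Pou2f2 stood at 1298 CPM in anti-Gr-1 cells with 3 or 4 markers and at 36.5 CPM in those with 2. In isotype control cells, Pou2f2 stood at 1030 CPM with 3 or 4 markers and 266 CPM with 2. Flt3 or Cd209a, genes of dendritic cells, had a UMI in 2 of 17 anti-Gr-1 cells with 3 or 4 markers and 10 of 13 with 2. The same genes had a UMI in 13 of 57 isotype control cells with 3 or 4 markers and 27 of 71 with 2. With 2 markers the shares were 76.9% for anti-Gr-1 and 38.0% for isotype control, against 29.8% and 34.9% of all kept barcodes. The anti-Gr-1 cells with 2 markers were also deeper. Cells with 2 markers thus included barcodes with dendritic-cell transcripts, well above the share of all kept barcodes in the anti-Gr-1 library only. The results on single genes below are mainly for cells with 3 or 4 markers, with list counts also given over all members. That division was made after values were seen.

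Among the marker genes, Ace encodes angiotensin-converting enzyme and Treml4 a receptor that binds dead cells. T cells were kept barcodes with at least 3 UMIs of Cd3d, Cd3e and Cd3g together and no Cd79a or C1q UMI. They also had fewer than 2 of the 4 markers, which can lower the marker values given for them. A Treml4 UMI was found in 0.0299% of anti-Gr-1 and 0.0885% of isotype control T cells, at median depths of 6990 and 4562.5 UMIs, and in 1.84% of anti-Gr-1 and 1.97% of isotype control barcodes with 1 marker. Spn, which encodes CD43, is made by T cells and had a UMI in 42.4% of them in the anti-Gr-1 library and 34.3% in the isotype control library. Ace had a UMI in 12.5% of anti-Gr-1 and 13.2% of isotype control T cells. Only Ace and Spn of the 4 were seen in 8 anti-Gr-1 and 40 isotype control members, and 5 of these 8 and 21 of these 40 had a UMI of Flt3 or Cd209a. Cx3cr1, which enters the rule as an alternative to Lyz2, averaged 232 CPM in anti-Gr-1 and 246 CPM in isotype control cells with 3 or 4 markers. It was detected in 13 of 17 of the anti-Gr-1 and 47 of 57 of the isotype control cells, against 29.2% of anti-Gr-1 and 28.2% of isotype control T cells.

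The first comparison asks how far non-classical monocytes were depleted beside classical ones. They made up 0.373% of kept barcodes in the anti-Gr-1 library (0.252 to 0.532) and 0.655% in the isotype control library (0.547 to 0.778), a ratio of 0.569 (0.369 to 0.852). With kept barcodes of at least 1000 UMIs thinned to 1000 and the others left out, the ratio was 0.298 (0.114 to 0.658). It then rested on 7 of 7882 anti-Gr-1 and 52 of 17427 isotype control barcodes. Cells with 3 or 4 markers made up 0.211% of anti-Gr-1 and 0.292% of isotype control barcodes, and their ratio of 0.724 had an interval, 0.395 to 1.26, that held 1. Cells with 2 markers had a ratio of 0.445 (0.226 to 0.810). Classical monocytes met the same exclusions with fewer than 2 of the 4 markers, and had at least 2 Ly6c2 UMIs, a UMI of Ccr2, Vcan, F13a1, Chil3 or Plac8, and no Flt3 or Cd209a. They numbered 4 in the anti-Gr-1 library and 78 in the isotype control library, a ratio of 0.125 (0.0331 to 0.332). The number of members per classical cell was thus 4.57 times as high in the anti-Gr-1 library as in the control (1.52 to 18.4). Counting only cells with 3 or 4 markers, it was 5.82 (1.75 to 24.8). Without members with Flt3 or Cd209a, left out after values were seen, it was 3.99 (1.23 to 16.8). The anti-Gr-1 library was deeper. At 1000 UMIs a barcode the value over all members was 1.84, with an interval, 0.388 to 11.6, that held 1. It then rested on 3 anti-Gr-1 and 41 isotype control classical cells. C1q macrophages had a ratio of 1.04 (0.886 to 1.23). Shares are of sorted CD45+ barcodes, and a loss of these cells cannot be told apart from a gain of others.

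**Figure D1:**
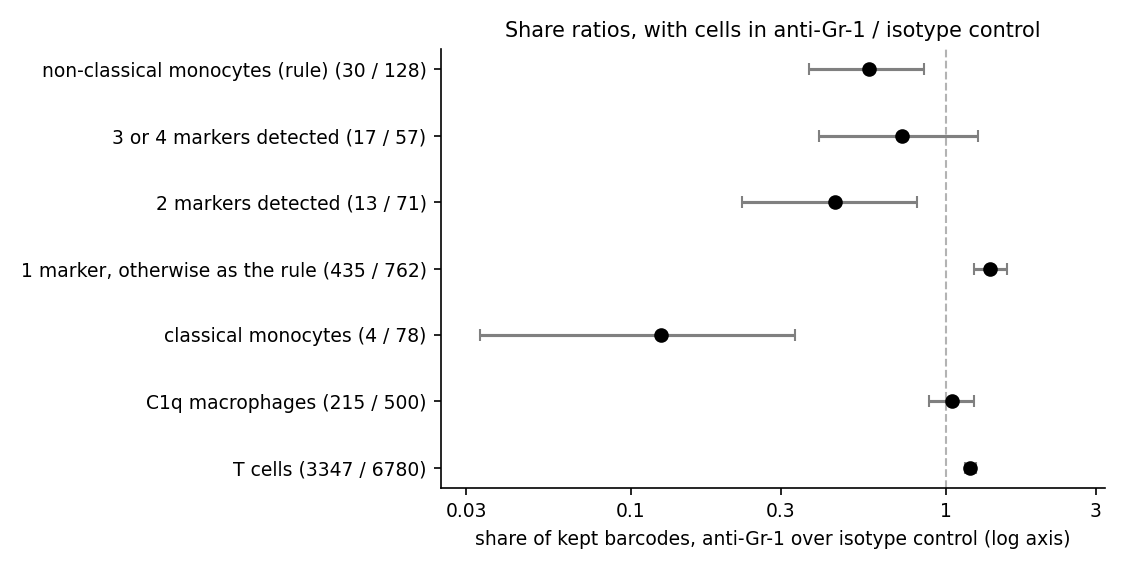
Ratio of each population's share of kept barcodes in the anti-Gr-1 library over the isotype control library, on a log axis, with exact 95% intervals for counting error; the numbers are cells in anti-Gr-1 / isotype control. Classical monocytes lie at 0.125, below the non-classical groups plotted (0.569, 0.724 and 0.445), and the interval of cells with 3 or 4 markers crosses 1.

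Marker combinations differed most at Cd300e, which encodes an activating receptor of monocytes. All 17 anti-Gr-1 cells with 3 or 4 markers had a Cd300e UMI, against 20 of 57 in the isotype control library. Ace, Treml4 and Spn without Cd300e were seen in 0 anti-Gr-1 and 37 isotype control cells. All 4 markers were seen in 14 anti-Gr-1 and 9 isotype control cells. Per cell, Cd300e ran from 146 through a median of 565 to 1729 CPM in the anti-Gr-1 cells with 3 or 4 markers, and from 0 through a median of 0 to 1535 CPM in the isotype control cells. The ranges overlapped, and 37 isotype control cells were at 0. Cd300e UMIs were all but absent in T cells, at 0.0711 CPM in the anti-Gr-1 and 0.0535 CPM in the isotype control library. Ace, Treml4 and Spn did not show this split: in cells with 3 or 4 markers they stood at 473, 369 and 401 CPM in the anti-Gr-1 library and at 677, 342 and 304 CPM in the isotype control library.

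**Figure D2:**
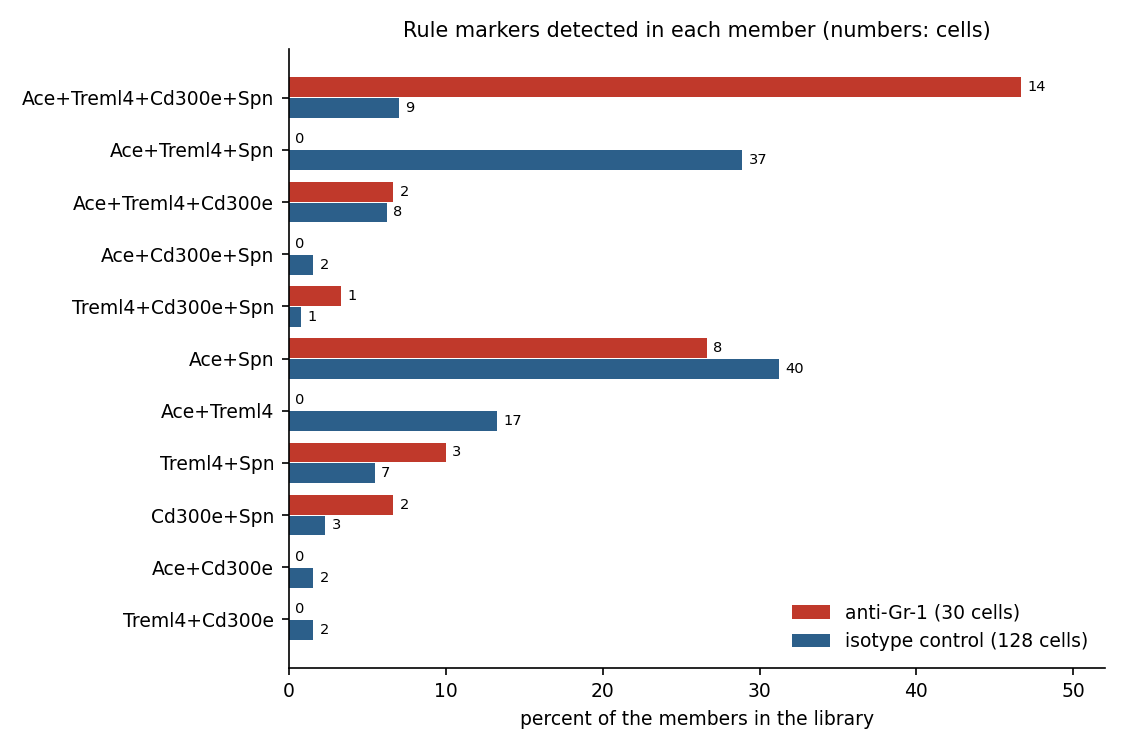
Percent of the members of each library with each combination of the 4 rule markers, with the number of cells at each bar; anti-Gr-1 bars lie above isotype control bars. All 4 markers were found in 14 of 30 anti-Gr-1 and 9 of 128 isotype control members, and Ace, Treml4 and Spn without Cd300e in 0 and 37.

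The identity genes of non-classical monocytes outside the rule were at like levels in both libraries once the fringe was set aside. In cells with 3 or 4 markers, 1606 genes outside the rule had at least 50 UMIs over both libraries; 1.99% were past 2-fold higher and 5.29% past 2-fold lower in anti-Gr-1 cells. Of the 25 identity genes, 2 were past 2-fold higher and 1 lower, with a median log2 ratio of 0.25 beside -0.06 over all genes tested. Over all members, 1.18% of 3824 genes were past 2-fold higher and 3.97% lower, and of the same 25 genes 2 were higher and 4 lower, with a median of -0.48 beside -0.13.

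Nr4a1 ran from 341 through 1630 to 3761 CPM per cell (lowest, median, highest) in the 17 anti-Gr-1 cells with 3 or 4 markers, and from 194 through 1566 to 6248 CPM in the 57 isotype control cells. The groups overlapped throughout, and the log2 ratio of the summed levels was 0.18. Nr4a1 is also an immediate early gene and stood at 1007 CPM in anti-Gr-1 and 1098 CPM in isotype control T cells. Pou2f2 had a log2 ratio of 0.33 and Csf1r, the receptor for macrophage colony-stimulating factor, of 0.01, with 729 CPM in anti-Gr-1 and 726 CPM in isotype control cells. Itgal, the alpha chain of the integrin LFA-1 by which these cells hold to endothelium, stood at 681 CPM in anti-Gr-1 and 898 CPM in isotype control cells, a log2 ratio of -0.39. The ion cotransporter Slc12a2 stood at 561 CPM in anti-Gr-1 and 355 CPM in isotype control cells, and Eno3, Tcf7l2 and Gngt2 had log2 ratios of 0.58, 0.61 and 0.30. Besides Fcgr4, the identity gene past 2-fold higher was Bcl2a1d. Apoc2, an apolipoprotein, was the identity gene past 2-fold lower, at 136 CPM in anti-Gr-1 and 373 CPM in isotype control cells (log2 ratio -1.39).

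**Figure D3:**
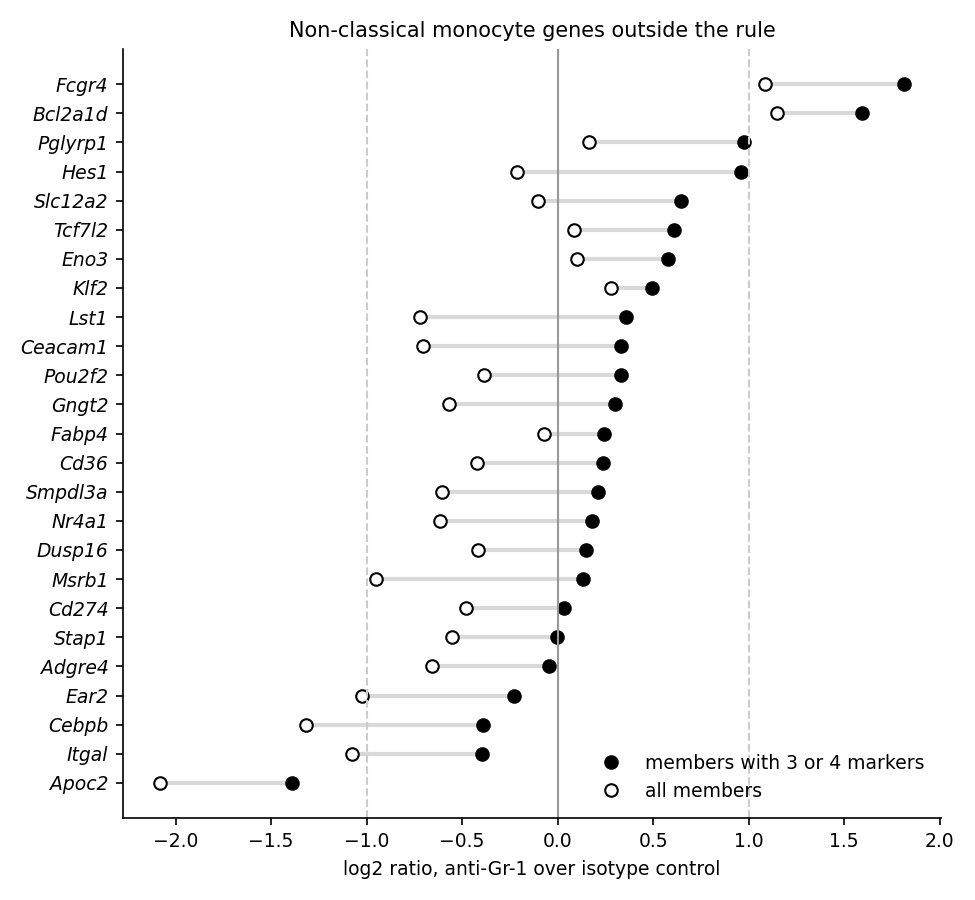
Log2 ratio, anti-Gr-1 over isotype control, of the 25 identity genes outside the rule, in members with 3 or 4 markers (filled) and in all members (open); dashed lines mark 2-fold. Of the filled points 19 lie above 0, and each gene's filled point lies to the right of its open one.

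Fcgr4 was the identity gene furthest toward the anti-Gr-1 library. It encodes an activating IgG Fc receptor typical of non-classical monocytes and lies on chromosome 1 at chr1:171018920-171029761 (mm10). Cells with 3 or 4 markers ran from 146 through 848 to 4716 CPM in the anti-Gr-1 library, and from 0 through 338 to 1851 CPM in the isotype control library. No anti-Gr-1 cell was at 0, against 14 isotype control cells. Summed, Fcgr4 stood at 1210 CPM (151 UMIs) in anti-Gr-1 and 337 CPM (133 UMIs) in isotype control cells, a ratio of 3.59 (2.82 to 4.56). Among cells that all carried Cd300e, the ratio was 3.41 (2.46 to 4.81). In barcodes with Xist and no Y-linked UMIs, the log2 ratio was 0.60, within 2-fold. T cells had 0.284 CPM of Fcgr4 in the anti-Gr-1 and 1.36 CPM in the isotype control library.

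Adhesion genes were mixed. Of 21 tested in cells with 3 or 4 markers, 3 were past 2-fold higher and 1 lower in the anti-Gr-1 library, beside 1.99% and 5.29% of all genes, with a median log2 ratio of 0.33. Over all members the list leaned the other way, with 2 higher, 2 lower and 18 of 25 below 0 (median -0.28). In cells with 3 or 4 markers the higher ones were Pecam1, Cd81 and Cd9, and the lower one Ccr2. Pecam1, which encodes the endothelial and leukocyte adhesion molecule CD31, had a UMI in 13 of 17 anti-Gr-1 and 12 of 57 isotype control cells. Its summed level was 321 CPM in anti-Gr-1 and 58.3 CPM in isotype control cells, a ratio of 5.49 (3.21 to 9.61), and 3.41 (1.79 to 6.94) among cells with Cd300e. The tetraspanins Cd81 and Cd9, membrane organisers, had log2 ratios of 1.90 and 1.03. Itga4 and Itgb2, chains of the integrins VLA-4 and LFA-1, had log2 ratios of 0.62 and 0.53, within 2-fold. Fcer1g, the signalling chain shared by activating Fc receptors, stood at 3406 CPM in anti-Gr-1 and 2060 CPM in isotype control cells (log2 ratio 0.72).

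Among genes chosen by the size of their ratio, Ccnd2, a cyclin of the G1 phase, led with 2.74. Ccnd2 had a UMI in 15 of 17 anti-Gr-1 and 18 of 57 isotype control cells, and stood at 617 CPM in anti-Gr-1 and 83.7 CPM in isotype control cells. T cells carry much Ccnd2, at 681 CPM in the anti-Gr-1 and 804 CPM in the isotype control library, and the part of free RNA in these values was not tested. Serpinb6a, an intracellular protease inhibitor, stood at 361 CPM in anti-Gr-1 and 55.8 CPM in isotype control cells (log2 ratio 2.49), with UMIs in 15 of 17 and 14 of 57. The survival factors Bcl2a1d, Bcl2a1a and Bcl2a1b had log2 ratios of 1.59, 1.03 and 1.05; they are near-identical copies whose reads may be split or shared. In contrast, Bcl2l11, which encodes the death factor Bim, stood at 24.0 CPM in anti-Gr-1 and 122 CPM in isotype control cells (log2 ratio -1.95, 3 and 48 UMIs). These were the 3 of 10 survival genes past 2-fold higher and the 1 lower, beside 1.99% and 5.29% of all genes. Over all members 1 of 13, Bcl2a1d, was higher and 0 lower, beside 1.18% and 3.97% of all genes. Tnf was past 2-fold higher, at 208 CPM in anti-Gr-1 and 88.8 CPM in isotype control cells. Mt2, a metallothionein, also passed, but all 66 of its anti-Gr-1 UMIs lay in 1 cell.

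**Figure D4:**
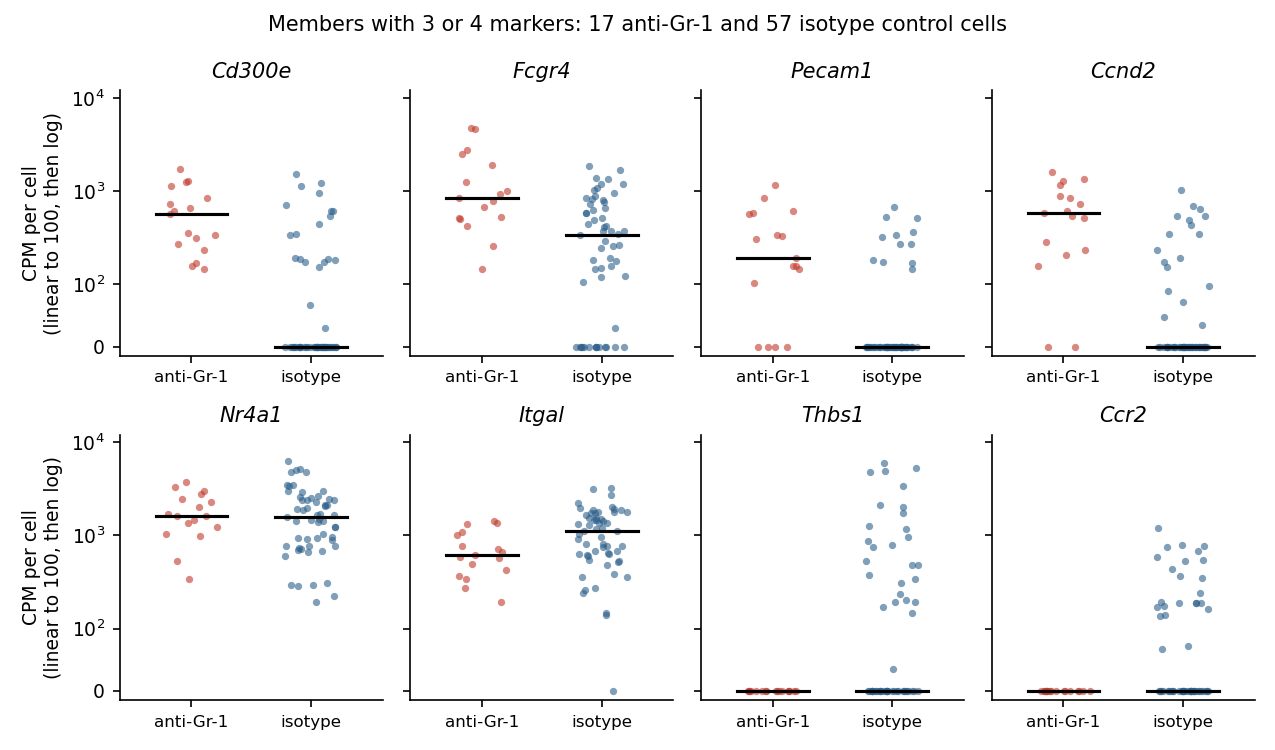
CPM per cell of 8 genes in the members with 3 or 4 markers, with anti-Gr-1 cells (17) left of isotype control cells (57) in each panel; the axis is linear to 100 and logarithmic above, and bars are medians. Cd300e, Fcgr4, Pecam1 and Ccnd2 have higher medians in anti-Gr-1 cells, Nr4a1 and Itgal overlap, and Thbs1 and Ccr2 have UMIs in isotype control cells only.

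Some genes of classical monocytes were lower in the anti-Gr-1 cells. In cells with 3 or 4 markers, 5 of 12 classical genes tested were past 2-fold lower and 0 higher, beside 5.29% and 1.99% of all genes, with 4 of 12 above 0 and a median log2 ratio of -0.62. Over all members, 8 of 15 were lower and 0 higher, beside 3.97% and 1.18% of all genes, with a median of -1.09. Among cells with Cd300e, 7 of these genes were tested, and those 7 did not show the lean. Of them 1 was higher (Cd14, 1.10), 1 lower (Fn1, -4.60) and 5 above 0, with a median of 0.32. Thbs1 and Ccr2, past 2-fold lower in cells with 3 or 4 markers, had under 50 UMIs there and were not tested. Most of the isotype control Fn1 UMIs in that comparison, 49, lay in 1 cell. The matrix protein gene Thbs1 (thrombospondin-1) was undetected among 17 anti-Gr-1 cells, against 272 UMIs in 27 of 57 isotype control cells (690 CPM). Taking 3 UMIs over the group as the limit a count of 0 allows, the anti-Gr-1 level was at most 0.0348 of the isotype control level. Thbs1 was also at 0 in all 30 anti-Gr-1 members, against 718 UMIs in the 128 isotype control members. Its level in T cells was 6.18 CPM in the anti-Gr-1 and 29.9 CPM in the isotype control library; the part of free RNA was not tested.

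Ccr2, the receptor that draws classical monocytes out of bone marrow, was undetected among 17 anti-Gr-1 cells, against 99 UMIs in 24 of 57 isotype control cells, and was at most 0.0957 of the control level. This zero did not extend to the fringe: all 106 Ccr2 UMIs of the anti-Gr-1 members lay in cells with 2 markers. The 17 anti-Gr-1 cells held 1 UMI of Fn1, or fibronectin, and the 57 isotype control cells held 110, a ratio of 0.0287 (0.000721 to 0.163). Of these 110 Fn1 UMIs, 49 lay in 1 cell, which also held 25 of the 99 Ccr2 UMIs and 516 Retnla UMIs. Of Ly6c2, which encodes a Ly6C protein, the anti-Gr-1 cells held 0 UMIs and the isotype control cells 30. Tgfbi and Ahnak had log2 ratios of -2.07 and -2.22. Retnla was undetected in the anti-Gr-1 cells and had 546 UMIs in the isotype control cells, of which 516 lay in 1 cell. Plac8, shared by both monocyte kinds, was within 2-fold in cells with 3 or 4 markers (log2 ratio -0.53) and past 2-fold lower over all members (-1.84).

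Cytokine and stress genes were mixed. Of all genes tested in cells with 3 or 4 markers, 1.99% were past 2-fold higher and 5.29% lower. Over all members these shares were 1.18% and 3.97%. Il1b stood at 729 CPM in anti-Gr-1 and 1700 CPM in isotype control cells with 3 or 4 markers, a log2 ratio of -1.21, and at -0.58 among cells with Cd300e. Of its isotype control UMIs, 117, 79 and 130 lay in 1 cell each. Those cells also held 12, 11 and 16 UMIs of Cd209a, a gene of dendritic cells. Il1rn, the interleukin-1 receptor antagonist, was undetected in the anti-Gr-1 cells, against 34 UMIs in the isotype control cells, of which 18 lay in 1. Of 10 NF-kB inhibitors tested, 0 were past 2-fold either way and 8 had a ratio above 0 (median 0.37), and over all members 0 of 15 passed either way (median 0.11). Among heat shock genes, Hspa1b and Dnaja1, 2 of 9, were past 2-fold lower, with Hspa1b at 208 CPM in anti-Gr-1 and 523 CPM in isotype control cells, while over all members 0 of 11 passed (median 0.06). Of 6 glucocorticoid-induced genes tested, 2 were past 2-fold higher: Tsc22d3, at 369 CPM in anti-Gr-1 and 172 CPM in isotype control cells, and Mt2, described above. Over all members 0 of 11 passed. Ifi27l2a, an interferon-induced gene, had a log2 ratio of -1.63.

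Detection was also compared at equal depth, with every cell thinned to 2000 UMIs, which left out 0 of 30 anti-Gr-1 and 8 of 128 isotype control members. Cd300e was then seen in 43.3% of anti-Gr-1 and 15% of isotype control members, Pecam1 in 33.3% and 8.33%, and Serpinb6a in 36.7% and 8.33%. In T cells thinned alike, Cd300e was seen in none, Pecam1 in 2.54% of anti-Gr-1 and 2.74% of isotype control cells, and Serpinb6a in 12.4% and 9.88%. Fcgr4 was seen in 43.3% of anti-Gr-1 and 34.2% of isotype control members, and Pou2f2 in 53.3% and 55.8%. Thbs1 was seen in 0 of 30 anti-Gr-1 members, which by the limit of 3 counts allows up to 10% of cells with a UMI at that depth, and in 33.3% of isotype control members. Ccnd2 was seen in 43.3% of anti-Gr-1 and 11.7% of isotype control members, while 66.2% of anti-Gr-1 and 70.9% of isotype control T cells, which express the gene, had it, so T cells set no background level for Ccnd2.

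Within the isotype control library, Cd300e went with part of this pattern. The comparison of the 20 cells with Cd300e and the 37 without tested 1228 genes, of which 1.87% were past 2-fold higher and 2.2% lower. Thbs1 stood at 181 CPM in cells with Cd300e and 965 CPM in cells without (log2 ratio -2.35), and the 30 Ly6c2 UMIs all lay in cells without it. Pecam1, Serpinb6a, Ccnd2 and Cd81 had log2 ratios of 1.08, 1.43, 1.03 and 1.48, from at most 18 UMIs each in the cells with Cd300e. Fcgr4 did not differ by as much (0.11), nor did Ccr2 (-0.30). Most of the Ccr2 UMIs in cells with Cd300e, 25, lay in 1 cell, and the ratio without that cell was not taken. Between anti-Gr-1 and isotype control cells that both carried Cd300e, 2.51% of 798 genes were past 2-fold higher and 4.26% lower. In that comparison Ccnd2, Pecam1 and Serpinb6a had log2 ratios of 2.16, 1.67 and 1.74, and Thbs1 had 0 anti-Gr-1 and 25 isotype control UMIs. Of these 25 Thbs1 UMIs, 16 lay in 1 cell.

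MHC class II genes differed between all members and the cells with 3 or 4 markers. H2-Aa stood at 8022 CPM over all anti-Gr-1 members and 3911 CPM over all isotype control members (log2 ratio 1.03), but at 2388 and 2527 CPM in cells with 3 or 4 markers (-0.08). With 2 markers, 12 of 13 anti-Gr-1 and 27 of 71 isotype control cells had 20 or more H2-Aa UMIs. With 3 or 4 markers, 1 of 17 anti-Gr-1 cells did and held 287 of the 298 UMIs, against 7 of 57 isotype control cells. Mast cell genes gave a like case in the control: 3 isotype control cells, all with 2 markers, had 20 or more UMIs of Mcpt4, a mast cell protease. The 11 mast and basophil markers summed to 87.7 CPM over anti-Gr-1 and 873 CPM over isotype control members, and to 56.1 and 81.2 CPM in cells with 3 or 4 markers.

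Transcripts of other cell types were also present in the cells with 3 or 4 markers. UMIs of 2 or more genes of other lineages were found in 4 of 17 anti-Gr-1 and 19 of 57 isotype control cells, or 23.5% and 33.3%. Of classical monocytes 50% and 34.6% had them, and of all kept barcodes, which include those lineages, 80.4% and 73.0%. The 15 dendritic cell markers summed to 601 CPM in anti-Gr-1 and 604 CPM in isotype control cells, against 590 and 410 CPM in classical monocytes. The 16 T and NK markers summed to 337 CPM in anti-Gr-1 and 137 CPM in isotype control cells, against 5485 and 5126 CPM in T cells, with Trac, Ncr1 and Gzma at 0 in anti-Gr-1 cells. The 16 resident macrophage markers summed to 1330 CPM in anti-Gr-1 and 3940 CPM in isotype control cells, against 2394 and 3080 CPM in all other kept barcodes and 33457 and 28121 CPM in C1q macrophages, and Lyve1, Folr2 and Mertk were at 0 in anti-Gr-1 cells; Retnla is on that list. The 14 skin structural markers were undetected in anti-Gr-1 cells and had 14 UMIs in isotype control cells. Their part in the differences above was not tested.

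The last comparison sets the cells with 3 or 4 markers beside classical monocytes within the isotype control library, which held 78 classical cells. Over 4931 genes outside both rules, 4.99% were past 2-fold higher and 4.68% lower in the non-classical cells. All 25 identity genes were above 0 and 20 were past 2-fold higher, with a median log2 ratio of 2.58 beside -0.00 over all genes. Both rules choose cells by opposed markers, so the identity and classical genes in this comparison are given as a description. Eno3, the muscle form of enolase, stood at 282 CPM in non-classical and 1.58 CPM in classical cells (log2 ratio 4.65). Fabp4, a fatty acid carrier, and Slc12a2, an ion cotransporter, had log2 ratios of 4.21 and 4.12. Pou2f2 stood at 1030 CPM in non-classical and 144 CPM in classical cells (2.76), Tcf7l2, a Wnt pathway factor, had a ratio of 2.97, and Nr4a1 one of 1.13. Klf2, Cebpb and Lst1 were within 2-fold, at 0.07, 0.48 and 0.51.

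Adhesion genes leaned the same way, with 12 of 26 past 2-fold higher and 3 lower in non-classical cells. Cd9, Cd36, S1pr5, which guides exit from tissue and marrow, and Itgal had log2 ratios of 2.90, 2.60, 2.42 and 2.05. The chemokine receptor Ccr1 was among the lower ones, at 10.1 CPM in non-classical and 211 CPM in classical cells (-3.46). The survival factor Bcl2 stood at 81.2 CPM in non-classical and 12.6 CPM in classical cells (2.01).

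Interferon-response and classical genes leaned the other way. Of 19 interferon genes, 14 were past 2-fold lower and 0 higher in non-classical cells, with a median of -1.33. Cxcl10, a chemokine induced by interferon, had 0 CPM in non-classical and 549 CPM in classical cells, Rsad2 stood at 20.3 and 657 CPM, and Isg15 at 25.4 and 469 CPM. Of 13 classical genes outside the rules, 7 were past 2-fold lower, among them Thbs1 at 690 and 3008 CPM. The 10 MHC class II genes were all within 2-fold, with a median of -0.40.

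Over all members fewer identity genes were past 2-fold. In the isotype control library 16 of 25 identity genes were past 2-fold higher over classical cells and 0 lower, with a median of 1.89, where 3.71% of genes were higher and 2.56% lower. In the anti-Gr-1 library 15 were higher and 2 lower, with a median of 1.91, where 18.6% of genes were higher and 10.6% lower, over only 4 classical cells with 69534 UMIs in all. In both libraries at once, 2.35% of genes were higher and 1.16% lower.

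**Figure D5:**
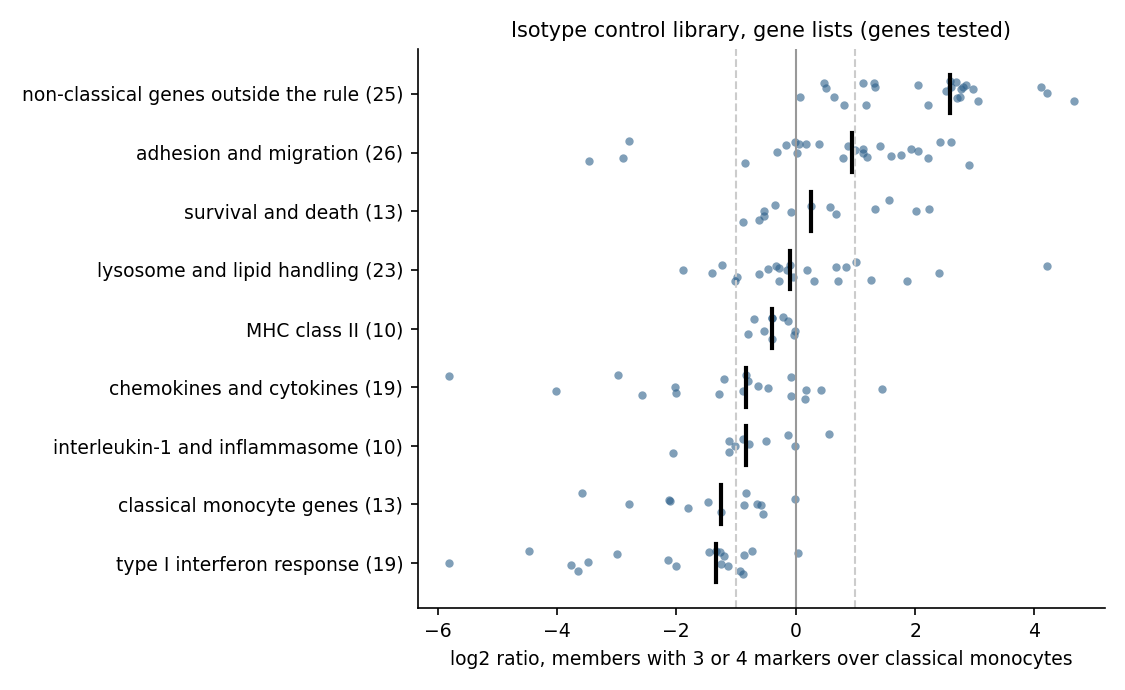
Log2 ratio of members with 3 or 4 markers over classical monocytes in the isotype control library, 1 point per gene tested, by gene list with the number tested; bars are medians and dashed lines mark 2-fold. The identity genes have a median of 2.58 and the interferon genes one of -1.33.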

How the data were processed

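The authors deposited raw UMI count matrices of 32285 genes, whose file headers name Cell Ranger 4.0.0, with mm10 named in the submitters' processing notes; all 9110 anti-Gr-1 and 21311 isotype control barcodes had at least 500 UMIs. Antibody-derived tags were not analysed here. Members and gene lists were chosen with earlier results of these data known. Counts were summed over the cells of a group, scaled to CPM and compared as log2 ratios with 10 CPM added, for genes with at least 50 UMIs; 2-fold was the limit and no test was possible with 1 library per group. Shares have Clopper-Pearson and ratios exact conditional intervals. Named genes were the rule genes, up to 8 members a list by UMIs and 4 by size of ratio, the 10 highest by CPM, the 20 highest and 10 lowest over classical monocytes, and the 15 highest and 15 lowest anti-Gr-1 over isotype control at 100 CPM or more, a rule repeated in cells with 3 or 4 markers after values were seen; genes outside it were also named after their values were seen. T cells gauged free RNA, though only those with fewer than 2 of the 4 markers were used. Scrublet (scanpy 1.11.5) was an alternative, which removed 1 of 30 anti-Gr-1 and 5 of 128 isotype control members. Gene positions are from GENCODE M21. Python 3.11.15, numpy 2.4.6, scipy 1.17.1 and pandas 2.3.3 were used. Some genes that the rule names are not reported here.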

Additional observations from a re-analysis of the deposited data

Results flagged for a closer look

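MHC class II genes and Mt2 went past 2-fold in opposite directions in barcodes called female (Xist, no Y-linked UMIs) and male (the reverse), a difference that was not tested. Log2 ratios are anti-Gr-1 over isotype control. Over all members, H2-Aa had -4.20 in female-called and 1.11 in male-called barcodes, H2-Eb1 had -6.18 and 1.24, and Mt2 had -4.78 and 1.78. The anti-Gr-1 members of these sets differed in make-up: all 5 female-called had 3 or 4 markers, while 11 of 20 male-called had 2. Anti-Gr-1 H2-Aa UMIs lay mostly in cells with 2 markers, as described above. In members with 3 or 4 markers, H2-Aa had -4.41 in female-called and 1.69 in male-called barcodes, H2-Eb1 had -6.44 and 1.88, and Cd74 had -6.48 and 1.39. The anti-Gr-1 side of the last set rests on 5 female-called and 9 male-called cells, and 1 cell held 287 of the 298 H2-Aa UMIs.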

How the results depend on the processing

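No paired analysis was possible because each group has 1 library, which also leaves no replicate to leave out. The share ratio of 0.569 moved to 0.298 when kept barcodes of at least 1000 UMIs were thinned to 1000 and the others left out. It turned to 2.06 in cells with 3 or 4 markers and Cd300e. That choice was made after seeing the data and restates the split in this rule marker. For cells with 3 or 4 markers, 0.724 became 1.37 in female-called barcodes. The ratio to classical monocytes ran from 1.84 (thinned, with an interval that held 1) to 16.6 (Cd300e). In female-called barcodes it was 4.5, with an interval, 0.452 to 220.6, that also held 1. The 45 genes past 2-fold higher over all members became 5 (thinned), 71 (without Ace-and-Spn-only members), 20 (Cd300e), 17 (pseudocount 50 CPM), 103 (at least 20 UMIs), 26 (at least 100 UMIs) and 71 (centred, against 114 lower). The 152 lower became 85 (at least 3 markers), 18 (thinned), 34 (Cd300e), 245 and 52 (pseudocounts 1 and 50 CPM), 262 and 83 (at least 20 and 100 UMIs). Past 2-fold over classical cells in both libraries, the 116 higher became 50 (female-called), 19 (thinned), 187 and 37 (pseudocounts), 184 and 75 (minimum UMIs), and the 57 lower became 29 (female-called), 15 (thinned), 103 (Cd300e), 86 and 19 (pseudocounts). Over all members the direction turned for H2-Aa, to -0.081 (at least 3 markers), -1.07 (without other-lineage barcodes), -4.20 (female-called), -1.93 (thinned), -0.044 (without Flt3 or Cd209a) and -0.043 (Cd300e), and for H2-Eb1, to -1.42, -6.18, -0.22 and -0.062 under the same settings less the first and the thinned. It also turned for Irf8 (-0.28 at 3 markers, -0.17 without Spn), Ear2 (0.037 without other-lineage barcodes), Itgal (0.54 female-called, 0.14 thinned), Plac8 (0.22 female-called, 0.14 Cd300e), Ifitm6 (0.29 female-called), Retnla (1.001 male-called), Apoe (0.59 thinned) and Cx3cr1 (0.14 Cd300e). In cells with 3 or 4 markers, 27 of 55 chosen genes were past 2-fold. For these 27 alone, 399 of 399 values under the alternatives run kept direction, 377 of them past 2-fold. A setting gave no value for a gene left below the minimum UMIs, 50 in most settings. Retnla and Mt2 thus had no value without the cell with their most UMIs. The 27 were also picked for passing in these same cells, so this count is no independent check. Settings by Cd300e, by Ace and Spn alone, by Flt3 or Cd209a, and without the cell with the most UMIs were chosen after seeing the data. The cause of these moves was not tested. Depth limits genes under 50 UMIs, which were not compared.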
